A study of Rattus norvegicus with 16 samples.

Results

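CD8+ cells from the blood of WKY rats were set against pan T cells from the blood of the same strain. The samples were chosen by their labels: both CD8+ gates from WKY blood, RT1B+ and RT1Blow, with 2 arrays each, and WKY blood pan T cells, with 2 arrays. These are 6 of the 16 arrays of the series, whose text describes its CD8+ cells as CD8αα+. RT1B is a rat MHC class II molecule, so the gates separate CD8+ cells with much of it on the surface from those with little. All 3 populations came from female rats of the strain labelled Wista Kyoto (WKY), 15 weeks old, that had been immunized with an autoantigen inducing autoimmune glomerulonephritis and were bled 30 to 35 days later. No unimmunized rat is among these groups. Levels are also given later for CD8+ cells from WKY glomeruli and from the blood of LEW rats, whose labels give the same age and days. Blood mononuclear cells were isolated by density gradient and the populations sorted with magnetic beads, and RNA was labelled in 1 colour for Agilent rat arrays. Whether both arrays of a population hold RNA from different rats is not stated, and p-values therefore reflect array-to-array spread that may be technical. The 4 CD8+ arrays were on 1 slide and both pan T arrays on the other, so slide and population cannot be told apart in any comparison with pan T cells.

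Natural killer (NK) cells are cytotoxic lymphocytes that recognise targets through germline-encoded receptors, pass the signal through ITAM adaptors and kill with perforin and granzymes. In the rat, NK cells carry CD8 as an αα dimer, whereas conventional cytotoxic T cells carry the αβ dimer together with the T cell receptor and its CD3 chains. Naive T cells are known for LEF1, the IL-7 receptor and CCR7, which keep them quiescent, alive and circulating through lymph nodes.

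Levels are given as log2 signal relative to the 75th percentile of the probes on the same array, so 0 is the level of a fairly bright probe. A gene counted as changed when limma's Benjamini-Hochberg adjusted p was below 0.05 over all 18481 genes tested, the difference was at least 2-fold and the gene was well above background on both arrays of a compared population. Levels of different genes come from different probes and are not compared with each other. Between 57.3% and 62.9% of the gene spots on the 6 arrays were well above background, and 0 were saturated. The paired arrays of a population correlated at r = 0.979 for RT1B+, 0.990 for RT1Blow and 0.984 for pan T, across genes, which are not independent replicates. A CD8+ array and a pan T array correlated at r = 0.918 to 0.941. Over the genes used for those cross-population values, RT1B+ array 2 correlated with RT1Blow array 2 at r = 0.990, above its r = 0.979 with RT1B+ array 1, and the RT1Blow arrays correlated with each other at r = 0.992. With 2 arrays in each population, the number of arrays limits the precision of every difference.

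The labels were first set against the defining genes. Cd8a, which encodes the CD8 α chain, stood at 2.79 and 3.48 on the pan T arrays, 4.81 and 4.12 on the RT1B+ arrays and 4.33 and 4.35 on the RT1Blow arrays. The 4 CD8+ arrays were all above the pan T arrays, and Cd8a rose 2.52-fold in RT1B+ cells (adjusted p = 0.0112) and 2.31-fold in RT1Blow cells (adjusted p = 0.018). The gap to the higher pan T array was small, and without pan T array 1 the log2 differences were 0.98 (adjusted p = 0.104) and 0.86 (adjusted p = 0.147), which did not pass. Leaving out RT1B+ array 1, RT1Blow array 1 or RT1Blow array 2 also ended the call in the gate concerned, at 0.98 (adjusted p = 0.0933), 1.22 (adjusted p = 0.085) and 1.20 (adjusted p = 0.0773). The NKR-P1A receptor gene of NK cells, Klrb1a, stood at -0.45 and -0.61 on the pan T arrays, 3.08 and 2.88 on the RT1B+ arrays and 2.88 and 3.04 on the RT1Blow arrays. It rose 11.4-fold in RT1B+ cells (adjusted p = 1.06e-05) and 11.2-fold in RT1Blow cells (adjusted p = 9.43e-06), with no overlap of arrays. Lef1, whose product keeps T cells naive, ran the other way, at 3.27 and 3.03 on the pan T arrays, -4.58 and -3.83 on the RT1B+ arrays and -6.06 and -4.60 on the RT1Blow arrays. The gate itself was less clear in the RNA. RT1-Bb, which encodes the RT1B β chain, stood at 2.89 and 1.69 on the pan T arrays, 2.14 and 2.95 on the RT1B+ arrays and 1.31 and 0.99 on the RT1Blow arrays, so the RT1B+ and pan T arrays overlapped, and the log2 difference between the gates was 1.39 ± 0.50 (SE, n = 2 against 2; adjusted p = 0.764). The α chain gene, RT1-Ba, had no population with both arrays well above background and was not tested. Cd74, the class II invariant chain, stood at 3.15 and 2.29 on the pan T arrays, 3.55 and 3.999 on the RT1B+ arrays and 2.31 and 2.23 on the RT1Blow arrays, and it did not pass the test in any of the 3 comparisons. Only Ciita, the master regulator of class II transcription, differed between the gates among 15 class II and antigen presentation genes tested.

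RT1B+ cells differed from pan T cells at 3112 of the 18481 genes (16.8%), of which 1648 were higher (8.92%) and 1464 lower (7.92%). RT1Blow cells differed at 3243 genes (17.5%), with 1830 higher (9.90%) and 1413 lower (7.65%). Both comparisons use the same 2 pan T arrays. By the rule for genes that separate both gates, 2580 genes (14%) passed in the same direction in both, 1410 higher (7.63%) and 1170 lower (6.33%). Genes that passed in opposite directions numbered 0 by limma at the adjusted threshold, and 2 at an unadjusted p below 0.05. At a 4-fold minimum 1093 genes separated both gates. The 4 CD8+ arrays and the 2 pan T arrays did not overlap at any of the 2580. The call uses the same levels, so this adds no separate support. Over all genes tested, 9211 had no overlap (49.8%). A further 532 genes (2.88%) passed in RT1B+ cells alone and 663 (3.59%) in RT1Blow cells alone. Passing in 1 gate alone does not show that the gates differ: the gates themselves differed at 13 genes (0.0703%), 6 higher (0.0325%) and 7 lower (0.0379%) in RT1B+ cells, and 12 of these were in the 1-gate groups. The median log2 difference from pan T over all genes tested was -0.08 for RT1B+ and 0.01 for RT1Blow, and the median between the gates was -0.06.

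**Figure D1:**
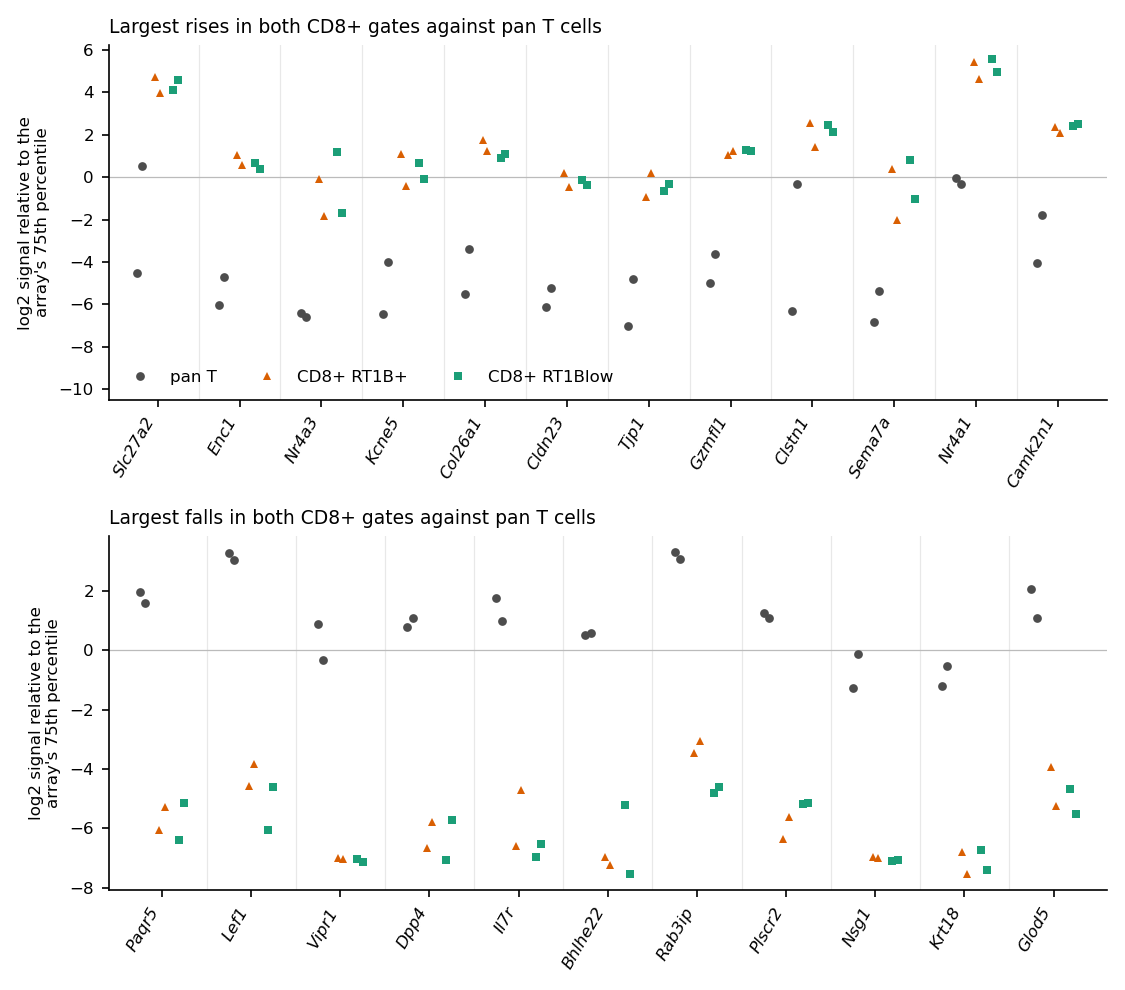
The 12 genes with the largest rise (upper panel) and 11 of the 12 with the largest fall (lower panel) in both CD8+ gates against pan T cells. The y axis is log2 signal relative to the array's 75th percentile and each point is 1 array, 2 for each population. No CD8+ point overlaps the pan T points of the same gene, which the choice of genes required. The pan T points of Slc27a2 (-4.50 and 0.51) and Clstn1 (-6.29 and -0.34) lie far apart.

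Among the 12 largest rises common to both gates, Slc27a2, a very long chain fatty acid transporter and acyl-CoA synthetase, stood at -4.50 and 0.51 on the pan T arrays, 4.71 and 3.96 on the RT1B+ arrays and 4.09 and 4.57 on the RT1Blow arrays. All 4 CD8+ arrays were close together and high, while the pan T arrays differed by more than the gap from the higher of them to the CD8+ cells. It rose 80.5-fold in RT1B+ cells (adjusted p = 0.00184) and 80.2-fold in RT1Blow cells (adjusted p = 0.00181). The log2 difference in RT1B+ cells was 3.82 (adjusted p = 0.000359) without pan T array 1 and 8.84 (adjusted p = 3.58e-06) without pan T array 2. Clstn1, calsyntenin 1, had the same split in pan T cells, where 1 of 2 arrays was well above background, at -6.29 and -0.34 on the pan T arrays, 2.57 and 1.43 on the RT1B+ arrays and 2.47 and 2.12 on the RT1Blow arrays. Its log2 difference was 5.32 ± 1.32 (SE, n = 2 against 2; adjusted p = 0.0136) in RT1B+ cells and 5.61 ± 1.32 (SE, n = 2 against 2; adjusted p = 0.00997) in RT1Blow cells. In RT1B+ cells it was 2.34 (adjusted p = 0.0122) without pan T array 1, without RT1B+ array 1 it was 4.75 (adjusted p = 0.0815), and in RT1Blow cells without RT1Blow array 1 5.44 (adjusted p = 0.0614). Pan T array 2 was the higher one for both genes, as for many NK and granule genes below.

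Enc1, an actin-associated kelch protein, was not well above background on either pan T array and stood at 1.05 and 0.58 on the RT1B+ arrays and 0.68 and 0.37 on the RT1Blow arrays. Its rise was therefore at least 59.4-fold in RT1B+ cells and at least 48.6-fold in RT1Blow cells. The bound sets the CD8+ mean against, on each pan T array, the lowest signal that was well above background or the probe's own signal where that was higher. Cldn23 and Tjp1, genes of the tight junction, were also not well above background in pan T cells, and rose at least 32.9-fold and at least 27.1-fold in RT1B+ cells and at least 30.6-fold and at least 24.7-fold in RT1Blow cells. A second Tjp1 probe gave a smaller log2 difference of 1.83 in RT1B+ cells. Camk2n1, an inhibitor of the kinase CaMKII, stood at -4.03 and -1.78 on the pan T arrays, 2.37 and 2.10 on the RT1B+ arrays and 2.43 and 2.49 on the RT1Blow arrays, and it rose 35.3-fold and 41.1-fold in the RT1B+ and RT1Blow gates. Gzmfl1, a granzyme F-like gene, rose 43.3-fold and 47.1-fold, with 1 of the 2 pan T arrays well above background. Kcne5, a potassium channel subunit, Col26a1, a collagen, and Sema7a, a membrane-anchored semaphorin, completed the group with Nr4a1 and Nr4a3, which are described with the immediate early genes.

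The 12 largest falls were all in genes well above background on both pan T arrays. Vipr1, the receptor for vasoactive intestinal peptide, was not well above background on any CD8+ array, against 0.87 and -0.32 on the pan T arrays, and was lower by at least 46.3-fold in RT1B+ cells and at least 39.00-fold in RT1Blow cells. Dpp4, the surface peptidase CD26, stood at 0.77 and 1.08 on the pan T arrays, -6.66 and -5.80 on the RT1B+ arrays and -7.07 and -5.70 on the RT1Blow arrays. It was above background on 1 RT1B+ array and on neither RT1Blow array, where its fall was at least 61.3-fold. Rab3ip, a guanine exchange factor of Rab8, fell by a log2 difference of -6.44 ± 0.34 (SE, n = 2 against 2; adjusted p = 2.11e-06) in RT1B+ cells and -7.90 ± 0.34 (SE, n = 2 against 2; adjusted p = 8.1e-07) in RT1Blow cells, where it was above background on 1 of 2 arrays. Paqr5, a progestin receptor of the membrane, had log2 differences of -7.45 and -7.53, and Plscr2, a phospholipid scramblase, of -7.15 and -6.33, both near background on the CD8+ arrays. Bhlhe22, Nsg1, Krt18, Glod5, Lef1 and Il7r were also among the 12.

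**Figure D2:**
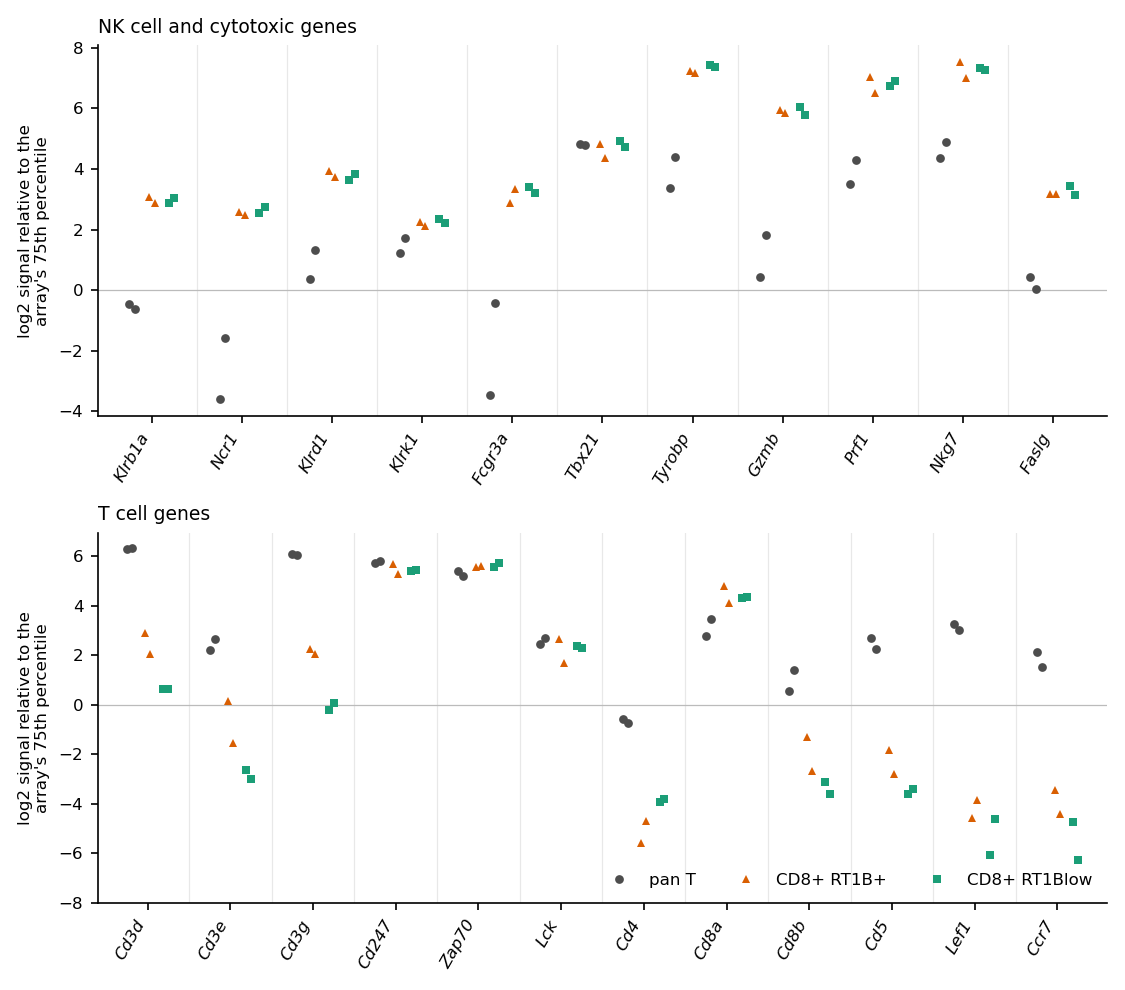
Levels of NK cell and cytotoxic genes (upper panel) and T cell genes (lower panel) on each array, as log2 signal relative to the array's 75th percentile, with 2 points for each population. The NK genes are higher on all 4 CD8+ arrays except Tbx21, whose points overlap. Klrk1 and Tbx21 did not pass the test. Cd3d, Cd3e, Cd3g, Cd4, Cd8b, Cd5, Lef1 and Ccr7 are lower on all 4 CD8+ arrays, Cd8a is higher, and Cd247, Zap70 and Lck did not pass the test.

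NK receptors rose as a group. Of 27 tested, 19 were higher in both gates, with a median log2 difference of 2.97 in RT1B+ cells and 3.14 in RT1Blow cells. The differences of the 16 of them that were measured on all 6 arrays ranged from 1.49 (Klrc1) to 5.12 (Ncr1) in RT1B+ cells and from 1.24 (Klrc1) to 5.25 (Fcgr3a) in RT1Blow cells. Among only genes measured on all 6 arrays, 16 of 20 members were higher in both gates. Over the other alternative settings with the same 2-fold minimum, 17 to 20 members were. Ncr1, which encodes the activating receptor NKp46, stood at -3.59 and -1.58 on the pan T arrays, 2.58 and 2.48 on the RT1B+ arrays and 2.53 and 2.74 on the RT1Blow arrays, and it rose 37.4-fold in RT1Blow cells (adjusted p = 6.47e-05). That log2 difference was 4.22 (adjusted p = 0.000267) without pan T array 1, against 5.22 with both. Klrd1, the CD94 chain that pairs with NKG2 receptors, stood at 0.38 and 1.33 on the pan T arrays, 3.93 and 3.72 on the RT1B+ arrays and 3.63 and 3.83 on the RT1Blow arrays. Both genes were high and tight on the CD8+ arrays and low on the pan T arrays, pan T array 2 being the higher. The NKG2 partners Klrc1, Klrc2 and Klrc3 rose 2.36-fold, 3.19-fold and 5.93-fold in RT1Blow cells and 2.82-fold, 4.21-fold and 5.47-fold in RT1B+ cells. Klrc1 no longer passed in RT1Blow cells without either pan T array or either RT1Blow array, with log2 differences from 1.12 (adjusted p = 0.0891) to 1.35 (adjusted p = 0.054), and neither did Klrc2 without pan T array 1 or RT1Blow array 2, at 1.53 (adjusted p = 0.0525) and 1.49 (adjusted p = 0.0541). Klrg1, an inhibitory receptor for cadherins that marks mature NK cells, stood at -1.57 and -0.46 on the pan T arrays, 2.89 and 2.16 on the RT1B+ arrays and 3.14 and 2.77 on the RT1Blow arrays.

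Ly49 receptors, which read MHC class I in rodents, moved with them: Ly49i2, Ly49i3, Ly49i7, Ly49s5 and Ly49si1 were all higher in both gates. Ly49s5 stood at -1.28 and 0.22 on the pan T arrays, 4.14 and 3.28 on the RT1B+ arrays and 3.66 and 3.59 on the RT1Blow arrays, a rise of 18.9-fold in RT1B+ cells and 17.8-fold in RT1Blow cells. Ly49 genes are near-identical copies, so a probe of one can read another. Kir3dl1, a killer immunoglobulin-like receptor, was not well above background in pan T cells and rose at least 5.62-fold and at least 6.06-fold. The NKR-P1 genes Klrb1b and Klrb1c rose 17.5-fold and 4.10-fold in RT1Blow cells, Klrb1b being above background on 1 of 2 pan T arrays. The activating receptor Klrk1 (NKG2D) did not pass, at 1.22 and 1.73 on the pan T arrays, 2.26 and 2.11 on the RT1B+ arrays and 2.34 and 2.23 on the RT1Blow arrays, with a log2 difference of 0.72 ± 0.31 (SE, n = 2 against 2; adjusted p = 0.125) in RT1B+ cells. A second Klrk1 probe gave 1.62. Cd226 and Crtam, receptors for nectin-family ligands that T cells also carry, did not pass either, with log2 differences of 0.26 and -0.23 in RT1B+ cells and 0.34 and 0.36 in RT1Blow cells. Ncam1, the CD56 molecule of human NK cells, was not well above background on any of the 6 arrays.

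The signalling parts behind these receptors rose in 8 of 12 genes tested. Fcer1g, the ITAM adaptor that also serves the Fc receptor CD16, stood at 1.76 and 2.95 on the pan T arrays, 6.54 and 6.29 on the RT1B+ arrays and 6.64 and 6.67 on the RT1Blow arrays. It rose 16.7-fold in RT1B+ cells (adjusted p = 3.38e-05) and 19.7-fold in RT1Blow cells (adjusted p = 2.12e-05). Tyrobp, the DAP12 adaptor, rose 10.1-fold and 11.5-fold. Syk, the kinase that ITAM adaptors recruit, stood at -3.03 and -1.58 on the pan T arrays, 2.47 and 2.40 on the RT1B+ arrays and 2.42 and 2.43 on the RT1Blow arrays, and it rose 26.7-fold and 26.6-fold with no overlap of arrays. Plcg2, the phospholipase downstream of SYK, and Lat2, an adaptor related to LAT, rose 11.8-fold and 26.9-fold in RT1B+ cells and 13.1-fold and 27.3-fold in RT1Blow cells. Hcst, the DAP10 adaptor of NKG2D, and Ptpn6, the SHP-1 phosphatase, did not pass, with log2 differences of 0.62 and 0.09 in RT1B+ cells and 0.67 and 0.13 in RT1Blow cells.

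Of 21 cytotoxic granule and death ligand genes tested, 11 were higher in both gates. The median log2 difference was 2.13 in RT1B+ cells and 2.24 in RT1Blow cells. Gzmb, a granzyme that triggers apoptosis, stood at 0.43 and 1.81 on the pan T arrays, 5.95 and 5.85 on the RT1B+ arrays and 6.06 and 5.80 on the RT1Blow arrays, and it rose 28.05-fold in RT1Blow cells (adjusted p = 1.48e-05). Gzmk, another granule protease, stood at 2.70 and 3.38 on the pan T arrays, 6.91 and 6.34 on the RT1B+ arrays and 6.56 and 6.53 on the RT1Blow arrays, and it rose 12.01-fold and 11.3-fold. Prf1, the pore-forming perforin, stood at 3.50 and 4.29 on the pan T arrays, 7.05 and 6.51 on the RT1B+ arrays and 6.73 and 6.92 on the RT1Blow arrays. All 3 genes were well above background in pan T cells too, and pan T array 2 was the higher of the pair each time. Prf1 rose 7.40-fold in RT1B+ cells (adjusted p = 0.000618) and 7.61-fold in RT1Blow cells (adjusted p = 0.000556). Stx11, a syntaxin needed for granule release, rose 21.4-fold and 21.7-fold. Other parts of the release machinery did not pass: Unc13d, Rab27a and Stxbp2 had log2 differences of 0.12, 0.50 and 0.01 in RT1B+ cells and 0.06, 0.36 and 0.27 in RT1Blow cells. Faslg, the Fas ligand, stood at 0.44 and 0.04 on the pan T arrays, 3.18 and 3.16 on the RT1B+ arrays and 3.44 and 3.16 on the RT1Blow arrays, and it rose 7.64-fold and 8.34-fold. Nkg7, which is on both lists, Cst7, Gzmm and Serpinb9, a granzyme B inhibitor, were among the members that rose in both gates.

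Promoters from RefSeq's rat assembly GRCr8 were searched for the letters TGTGGT on either strand, the core that RUNX factors bind. Whether a RUNX factor acts on these genes was not tested. Within 250 bases before to 50 after the start, 8 of the 11 granule genes that rose in both gates held the letters. Of 8 granule genes with a promoter entry that did not rise in both gates, 1 held them. The 11 were picked by their change in these data and include several granzymes, so they are not independent draws from all promoters. The letters were in 17.3% of all 33469 promoters, in 13.4% of the promoters of genes tested, and in 14.2% and 13.4% of those of all genes that rose and fell in both gates. The 250 bases before the start are shown for 3 granule genes and, from the genes that fell, for Il7r, with the letters or their reverse complement in capitals. Gzmb lies at chr15:34462470-34462719, minus strand, Gzma at chr2:46485697-46485946, minus strand, Prf1 at chr20:29788790-29789039, plus strand and Il7r at chr2:60204918-60205167, minus strand.
Gzmb: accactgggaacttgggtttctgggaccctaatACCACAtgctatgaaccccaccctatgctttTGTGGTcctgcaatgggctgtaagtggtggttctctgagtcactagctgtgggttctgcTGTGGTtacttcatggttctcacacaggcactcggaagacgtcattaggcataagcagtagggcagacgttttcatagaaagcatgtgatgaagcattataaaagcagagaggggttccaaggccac
Gzma: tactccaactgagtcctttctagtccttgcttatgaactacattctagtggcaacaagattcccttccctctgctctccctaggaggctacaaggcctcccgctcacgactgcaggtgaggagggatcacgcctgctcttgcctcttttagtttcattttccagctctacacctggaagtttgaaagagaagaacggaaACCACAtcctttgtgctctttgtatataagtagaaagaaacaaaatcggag
Prf1: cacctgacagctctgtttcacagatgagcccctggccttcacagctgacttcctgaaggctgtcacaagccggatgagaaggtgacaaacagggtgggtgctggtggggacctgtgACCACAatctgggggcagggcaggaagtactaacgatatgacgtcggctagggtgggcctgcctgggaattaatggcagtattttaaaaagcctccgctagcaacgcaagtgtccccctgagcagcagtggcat
Il7r: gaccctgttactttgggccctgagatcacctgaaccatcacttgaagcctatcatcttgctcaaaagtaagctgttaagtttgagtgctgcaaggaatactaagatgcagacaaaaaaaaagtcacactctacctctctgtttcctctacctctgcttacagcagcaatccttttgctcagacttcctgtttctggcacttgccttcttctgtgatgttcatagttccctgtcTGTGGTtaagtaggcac
Gzmb held 3 copies, beginning 217, 186 and 127 bases before the start, and the others 1 each, at 51 in Gzma, 134 in Prf1 and 17 in Il7r. A match is a run of letters and not a bound site. The T-box letters GGTGTGA, the TCF/LEF letters CTTTGAT, the CRE letters TGACGTCA and the AP-1 letters TGANTCA were in 2, 0, 0 and 2 of the same 11 promoters, against 3.83%, 3.63%, 1.83% and 7.33% of all promoters.

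The T cell receptor complex fell in most of its parts. Of 21 genes tested, 14 were lower in both gates and 1, Cd8a, was higher. The median log2 difference was -2.17 in RT1B+ cells and -2.09 in RT1Blow cells. Cd3e, a CD3 signalling chain, stood at 2.20 and 2.64 on the pan T arrays, 0.14 and -1.55 on the RT1B+ arrays and -2.63 and -2.997 on the RT1Blow arrays. Cd3d stood at 6.28 and 6.32 on the pan T arrays, 2.88 and 2.07 on the RT1B+ arrays and 0.63 and 0.63 on the RT1Blow arrays, and Cd3g at 6.07 and 6.04 on the pan T arrays, 2.24 and 2.05 on the RT1B+ arrays and -0.19 and 0.07 on the RT1Blow arrays. The pan T arrays were highest, the RT1B+ arrays intermediate and the RT1Blow arrays lowest for all 3 chains, with no overlap between populations. The log2 fall of Cd3g was -3.91 ± 0.54 (SE, n = 2 against 2; adjusted p = 0.000369) in RT1B+ cells and -6.11 ± 0.54 (SE, n = 2 against 2; adjusted p = 1.87e-05) in RT1Blow cells. The difference between the gates was 2.20 for Cd3g, 1.85 for Cd3d and 2.11 for Cd3e on the log2 scale, and none of the 3 passed (adjusted p = 0.324, 0.613 and 0.515). Trat1, an adaptor that stabilises the receptor at the surface, showed the same order, at -0.45 and -1.03 on the pan T arrays, -4.11 and -4.39 on the RT1B+ arrays and -6.93 and -6.39 on the RT1Blow arrays, and its difference between the gates had an adjusted p of 0.0861. In bulk samples such as these, fewer cells of a type and less RNA per cell cannot be told apart.

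The coreceptors split. Cd8b, whose product forms the αβ dimer of CD8, stood at 0.56 and 1.42 on the pan T arrays, -1.28 and -2.67 on the RT1B+ arrays and -3.12 and -3.59 on the RT1Blow arrays, so it was lower on every CD8+ array while Cd8a was higher. It fell 7.81-fold in RT1B+ cells (adjusted p = 0.00259) and 20.3-fold in RT1Blow cells (adjusted p = 0.0002). Cd5, Cd6 and Cd28, modulators of T cell receptor signalling, fell as well, Cd28 by at least 8.32-fold and at least 7.01-fold because it was not well above background on any CD8+ array. Cd6 did not pass in RT1B+ cells without either pan T array or RT1B+ array 2, at -1.89 (adjusted p = 0.0531), -1.79 (adjusted p = 0.0554) and -1.58 (adjusted p = 0.0781). Cd247, the ζ chain that NK receptors share with CD3, stood at 5.71 and 5.79 on the pan T arrays, 5.67 and 5.30 on the RT1B+ arrays and 5.41 and 5.45 on the RT1Blow arrays and did not pass in either gate. Zap70, Lck, Lat and Lcp2, the proximal kinases and adaptors, did not pass either, with log2 differences of 0.28, -0.41, -0.74 and -0.02 in RT1B+ cells and 0.34, -0.26, -0.57 and 0.23 in RT1Blow cells. Txk, a Tec-family kinase, was higher by 2.62-fold and 2.52-fold.

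Of 17 naive T cell genes tested, 13 were lower in both gates and 2 higher. The median log2 difference was -2.49 in RT1B+ cells and -2.34 in RT1Blow cells. Il7r, the receptor for the survival cytokine IL-7, stood at 1.75 and 0.99 on the pan T arrays, -6.59 and -4.70 on the RT1B+ arrays and -6.96 and -6.54 on the RT1Blow arrays, and was well above background on 1 of 2 RT1B+ arrays and on neither RT1Blow array. Its fall in RT1Blow cells was at least 83.3-fold. Ccr7, the lymph node homing receptor, stood at 2.15 and 1.53 on the pan T arrays, -3.45 and -4.41 on the RT1B+ arrays and -4.73 and -6.27 on the RT1Blow arrays, and its fall was 54.6-fold in RT1B+ cells and at least 114-fold in RT1Blow cells. Ccr7 was above background on both RT1B+ arrays and on neither RT1Blow array. Slamf6, a self-ligand receptor of lymphocytes, fell at least 10.1-fold and at least 8.50-fold. Il6st and Il6r, both chains of the IL-6 receptor, fell by log2 differences of -4.60 and -5.53 in RT1B+ cells and -4.51 and -4.60 in RT1Blow cells. The members that rose were Txk and Nt5e, the ecto-nucleotidase CD73, which stood at -3.24 and -3.07 on the pan T arrays, -0.47 and -0.39 on the RT1B+ arrays and -0.84 and -0.56 on the RT1Blow arrays.

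Helper and regulatory T cell genes were mostly lower where they changed: 6 of 17 fell in both gates and 1 rose. Over all genes tested, 6.33% fell in both gates and 7.63% rose. With the authors' deposited values 3 of the 17 fell, and in a fit to the 10 blood arrays alone 7 of 16 did. Among genes well above background on all 6 arrays, 2 of 7 fell. Cd40lg, the CD40 ligand of helper T cells, was not well above background on any CD8+ array, against -0.74 and -1.54 in pan T cells, and fell at least 17.3-fold in RT1B+ cells and at least 14.6-fold in RT1Blow cells. Icos, a costimulatory receptor of follicular helper cells, stood at 0.28 and 0.71 on the pan T arrays, -3.80 and -3.27 on the RT1B+ arrays and -4.10 and -3.93 on the RT1Blow arrays. Foxp3, the factor of regulatory T cells, did not pass, at -3.09 and -1.60 on the pan T arrays, -3.05 and -2.57 on the RT1B+ arrays and -2.71 and -2.62 on the RT1Blow arrays. It depended on the pan T array: without array 1 it was lower in both gates, at -1.21 (adjusted p = 0.0201) and -1.07 (adjusted p = 0.0338), and without array 2 the log2 differences were 0.28 (adjusted p = 0.579) and 0.42 (adjusted p = 0.371). The 1 member that rose was Il4, the type 2 cytokine, which was at -1.45 and -1.69 on the RT1B+ arrays, -0.26 and -0.98 on the RT1Blow arrays and not well above background in pan T cells, a rise of at least 12.2-fold and at least 23.6-fold. Basophils and mast cells also make IL-4, and of 12 of their genes tested only Il4 and Mcpt8, a basophil protease, rose in both gates. Mcpt8 stood at 1.16 and 0.82 on the pan T arrays, 2.74 and 2.84 on the RT1B+ arrays and 3.66 and 3.73 on the RT1Blow arrays. Its rise in RT1B+ cells did not pass without either RT1B+ array or without pan T array 2, at 1.85 (adjusted p = 0.0559), 1.75 (adjusted p = 0.0646) and 1.63 (adjusted p = 0.0779). Fcer1a and Ms4a2, chains of the IgE receptor, were not well above background on both arrays of any population. Of the others, Mcpt1 and Cma1, mast cell proteases, were lower in RT1B+ cells alone, and 8 passed in neither gate. Neither protease passed in RT1B+ cells without pan T array 1, at -3.48 (adjusted p = 0.0728) and -4.000 (adjusted p = 0.0747), or without RT1B+ array 2, at -4.01 (adjusted p = 0.0533) and -4.02 (adjusted p = 0.0643). Over the 12 the median log2 difference was -0.76 in RT1B+ cells and 0.03 in RT1Blow cells. At an unadjusted p below 0.05, 6 were lower in RT1B+ cells, where 34.8% of all genes tested had such a p in either direction. The summed signal of the mast cell and basophil genes, in units of the array's 75th percentile, was 3.08 and 2.18 on the pan T arrays, 7.24 and 7.56 on the RT1B+ arrays and 14.4 and 14.04 on the RT1Blow arrays. Most of that was Mcpt8, and without Mcpt8 and Il4 the sum was 0.836 and 0.394 on the pan T arrays, 0.194 and 0.102 on the RT1B+ arrays and 0.943 and 0.263 on the RT1Blow arrays. Mcpt8 and Il4 were the members that rose in both gates, so the sum without them cannot show how much basophil RNA was there. The part of basophil and mast cell RNA in the Il4 result was not tested.

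Transcription factors of the NK and T lineages divided, with 8 of 28 higher in both gates and 7 lower. Nfil3, which NK cells need to develop, stood at -2.53 and -2.25 on the pan T arrays, 1.19 and 0.88 on the RT1B+ arrays and 1.37 and 1.25 on the RT1Blow arrays, and it rose 10.7-fold (adjusted p = 6.27e-06) and 12.98-fold (adjusted p = 3.7e-06). Prdm1, the BLIMP-1 repressor of effector cells, stood at -3.16 and -2.86 on the pan T arrays, 0.28 and 0.69 on the RT1B+ arrays and 0.62 and 0.69 on the RT1Blow arrays, and Bhlhe40, a stress-responsive repressor, at -0.76 and -1.03 on the pan T arrays, 3.05 and 2.65 on the RT1B+ arrays and 3.55 and 3.10 on the RT1Blow arrays. The CD8+ and pan T arrays did not overlap for any of the 3. Id2, Runx3, Zeb2, Ikzf3 and Irf8 also rose, by 3.60-fold, 3.81-fold, 5.15-fold, 4.89-fold and 12.01-fold in RT1B+ cells and 4.93-fold, 4.73-fold, 5.19-fold, 4.64-fold and 10.8-fold in RT1Blow cells. The factors that fell were Lef1, Satb1, Bach2, Foxp1, Ets1, Tox and Maf. Of these, Bach2 did not pass in RT1B+ cells without pan T array 1, at -1.43, or without RT1B+ array 2, at -1.60. Foxp1 did not pass there without RT1B+ array 1, at -0.97. Ets1 did not pass in either gate without pan T array 1, at -1.15 and -1.12, or without pan T array 2, at -1.52 and -1.48. It also did not pass in RT1B+ cells without RT1B+ array 2, at -0.81. In RT1Blow cells Ets1 did not pass without RT1Blow array 1 or 2, at -1.35 and -1.25. Maf did not pass in either gate without pan T array 2, at -1.33 and -0.996. Satb1, a chromatin organiser of thymocytes and T cells, stood at 6.08 and 5.53 on the pan T arrays, 3.87 and 3.59 on the RT1B+ arrays and 3.66 and 3.65 on the RT1Blow arrays. Tbx21, the T-bet factor of type 1 lymphocytes, lay at 4.83 and 4.78 on the pan T arrays, 4.83 and 4.37 on the RT1B+ arrays and 4.92 and 4.73 on the RT1Blow arrays, with the populations overlapping, and did not pass in either gate.

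**Figure D3:**
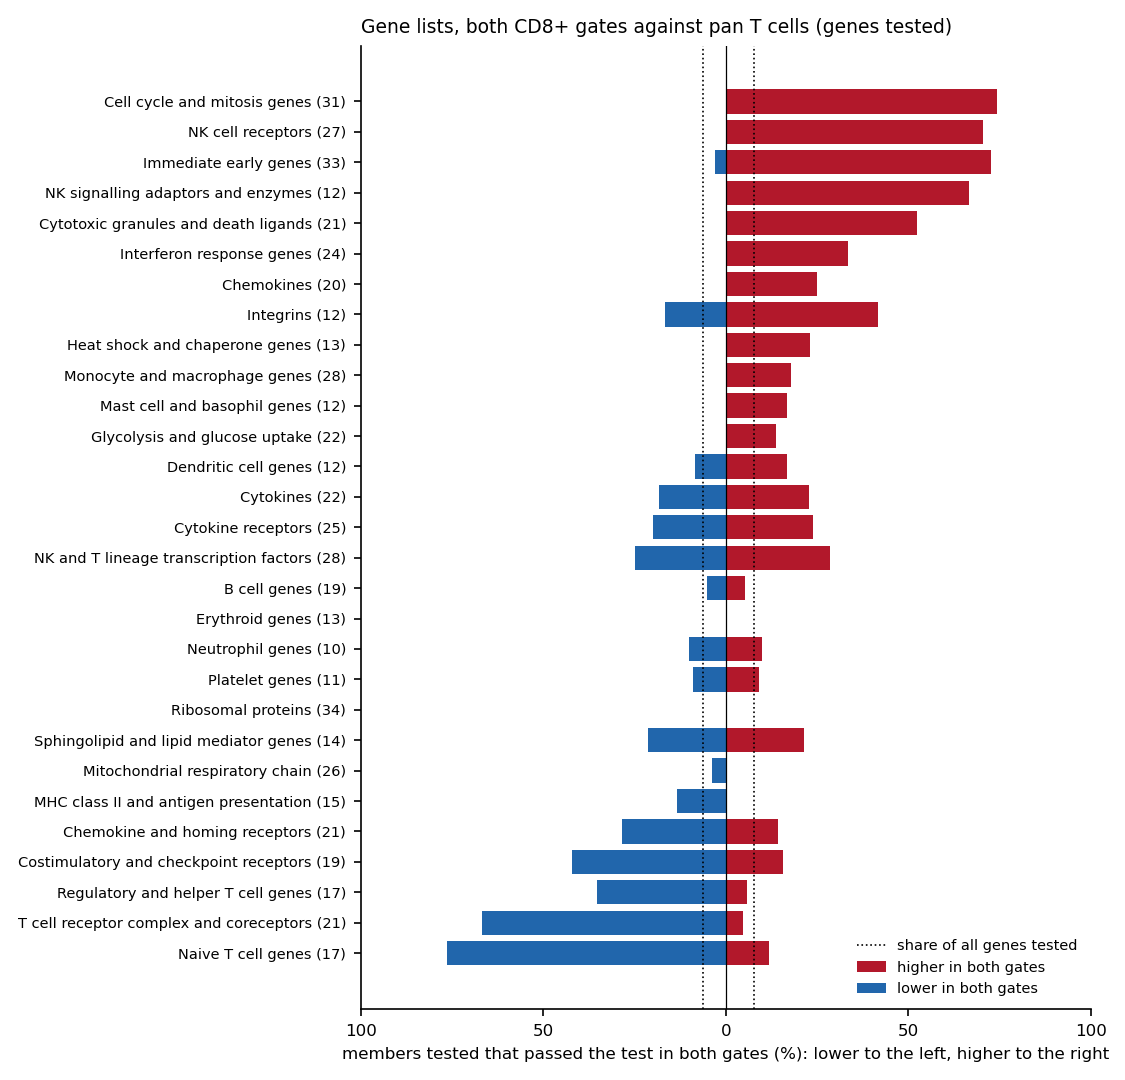
Share of the tested members of each gene list that passed the test in both CD8+ gates against pan T cells, with higher members to the right and lower members to the left, and the number tested in brackets. Dotted lines mark the share among all genes tested, 7.63% higher and 6.33% lower. NK, granule, immediate early and cell cycle lists reach to the right, and T cell receptor and naive T cell lists to the left.

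Immediate early genes, the transcription factors and feedback inhibitors that cells induce within minutes of a stimulus, rose in 24 of 33 members tested. The median log2 difference was 2.26 in RT1B+ cells and 2.29 in RT1Blow cells. Nr4a1, an orphan nuclear receptor induced by antigen receptor signals, stood at -0.03 and -0.33 on the pan T arrays, 5.41 and 4.62 on the RT1B+ arrays and 5.58 and 4.97 on the RT1Blow arrays, and it rose 43.8-fold in RT1Blow cells (adjusted p = 3.3e-06). Nr4a3, of the same family, was not well above background in pan T cells and rose at least 18.3-fold and at least 30.4-fold, with CD8+ levels of -1.86 to 1.17. The CD8+ arrays differed among themselves more for Nr4a3 than for Nr4a1, array 1 of each gate being the higher. Gadd45b, a stress-response gene, stood at 0.59 and 0.38 on the pan T arrays, 5.29 and 4.64 on the RT1B+ arrays and 5.10 and 4.91 on the RT1Blow arrays, a rise of 22.3-fold and 22.9-fold. Atf3 and Egr1, stress-induced and growth-induced factors, rose 20.8-fold and 8.85-fold in RT1B+ cells and 24.4-fold and 9.64-fold in RT1Blow cells. Dusp5, which turns off ERK, and Nfkbia, which holds back NF-κB, rose 9.99-fold and 9.59-fold in RT1B+ cells and 13.6-fold and 9.16-fold in RT1Blow cells. Junb, Fosb, Btg2 and Dusp1 were among the members that did not pass, with log2 differences between 0.76 (Junb) and 1.01 (Fosb) in RT1B+ cells and between 0.88 (Btg2) and 1.56 (Fosb) in RT1Blow cells. Btg2 passed as higher in both gates without pan T array 1, at 1.42 (adjusted p = 0.0266) and 1.44 (adjusted p = 0.024), and Fosb in RT1B+ cells without RT1B+ array 2, at 1.87 (adjusted p = 0.0486). Without RT1B+ array 1, Fosb and Dusp1 passed in RT1Blow cells, at 1.56 (adjusted p = 0.0361) and 1.51 (adjusted p = 0.0462), and without RT1B+ array 2 at 1.56 (adjusted p = 0.0362) and 1.51 (adjusted p = 0.0464). Myc, the growth factor-induced regulator, fell, from 2.85 and 2.50 on the pan T arrays to 1.31 to 1.59 on the CD8+ arrays. Its log2 difference in RT1B+ cells was -1.001 (adjusted p = 0.0539) without pan T array 1, which did not pass. Of 13 heat shock and chaperone genes tested, 3 rose in both gates (Hspa5, Dnajb4 and Hmox1), and Hspa5 did not pass without pan T array 2, at 0.83 (adjusted p = 0.14) and 0.74 (adjusted p = 0.185).

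Cell cycle genes also rose: 23 of 31 tested were higher in both gates and 4 more in RT1B+ cells alone. The median log2 difference was 2.32 in RT1B+ cells and 1.83 in RT1Blow cells. Mki67, the proliferation antigen Ki-67, stood at -0.88 and 0.16 on the pan T arrays, 2.31 and 2.62 on the RT1B+ arrays and 2.08 and 2.05 on the RT1Blow arrays, and it rose 7.10-fold in RT1B+ cells (adjusted p = 0.000176) and 5.38-fold in RT1Blow cells (adjusted p = 0.000482). Cks2, a subunit of cyclin-dependent kinases, had the largest difference of the list in both gates, at 0.06 and -0.02 on the pan T arrays, 5.49 and 4.85 on the RT1B+ arrays and 5.08 and 4.65 on the RT1Blow arrays. Ccna2, the S and G2 phase cyclin, stood at -3.29 and -1.51 on the pan T arrays, 0.43 and 0.28 on the RT1B+ arrays and -0.58 and -0.59 on the RT1Blow arrays. The pan T arrays were lowest for all 3 and array 2 was the higher for Mki67 and Ccna2. Rrm2, a subunit of ribonucleotide reductase, rose 5.28-fold and 2.78-fold, and Foxm1, a mitotic transcription factor, 4.08-fold and 3.55-fold. Without pan T array 1, 19 of the 31 rose in both gates, and the median log2 difference was 1.78 in RT1B+ cells and 1.41 in RT1Blow cells. Rrm2 was among the 4 lost, with 0.59 (adjusted p = 0.287) in RT1Blow cells, and Ccna2, with 0.93 (adjusted p = 0.0356), was below 2-fold there. The replication helicase genes Mcm3 and Mcm6 did not pass, with log2 differences of -0.11 and 0.81 in RT1B+ cells and -0.49 and 0.69 in RT1Blow cells. Without RT1B+ array 2 Mcm6 passed as higher in RT1B+ cells, at 1.12 (adjusted p = 0.0148). Ccne1, the cyclin of the G1 to S transition, passed in RT1B+ cells alone, at -2.09 and -1.77 on the pan T arrays, -0.18 and -0.41 on the RT1B+ arrays and -1.29 and -1.37 on the RT1Blow arrays, and the gates did not differ by the test (adjusted p = 0.474).

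Among chemokines, 5 of 20 rose in both gates, and 3 did without pan T array 2 or without either RT1B+ array. Xcl1, which draws cross-presenting dendritic cells, stood at -0.50 and 0.47 on the pan T arrays, 4.76 and 4.59 on the RT1B+ arrays and 4.63 and 4.69 on the RT1Blow arrays, a rise of 25.5-fold in RT1Blow cells (adjusted p = 5.94e-06). Ccl3 and Ccl4, inflammatory chemokines, rose 11.9-fold and 9.81-fold in RT1Blow cells. Cxcl10 and Cxcl16 rose 2.58-fold and 2.17-fold in RT1B+ cells and 5.45-fold and 2.42-fold in RT1Blow cells. Those 2 did not pass in RT1B+ cells without pan T array 2, at 0.76 (adjusted p = 0.273) and 0.82 (adjusted p = 0.147). Ccl5, the RANTES chemokine of memory and effector lymphocytes, was high everywhere and did not pass, at 7.13 and 7.30 on the pan T arrays, 8.29 and 7.43 on the RT1B+ arrays and 8.01 and 7.81 on the RT1Blow arrays. Ccl7, Ccl9 and Cxcl2, chemokines of myeloid cells, passed in RT1Blow cells alone. Cxcl2 stood at 0.98 and 0.81 on the pan T arrays, 1.05 and 3.05 on the RT1B+ arrays and 4.01 and 3.67 on the RT1Blow arrays, and RT1B+ array 1 lay with the pan T arrays while RT1B+ array 2 lay near the RT1Blow arrays. None of the 3 passed in RT1Blow cells without pan T array 2, with log2 differences of 2.13, 1.13 and 2.85, or without either RT1Blow array. The differences of Ccl7, Ccl9 and Cxcl2 were 2.52, 1.54 and 2.77 without RT1Blow array 1. Without RT1Blow array 2 they were 2.62, 1.36 and 3.11. Ccl9 and Cxcl2 also did not pass without pan T array 1, at 1.78 and 3.03.

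Cytokine genes moved both ways, with 5 of 22 higher in both gates and 4 lower, and 2 lower without RT1Blow array 2. Ifng, the macrophage-activating interferon γ, stood at 0.58 and -0.63 on the pan T arrays, 3.64 and 3.14 on the RT1B+ arrays and 3.36 and 3.23 on the RT1Blow arrays. It rose 10.6-fold in RT1B+ cells (adjusted p = 8.66e-05) and 9.999-fold in RT1Blow cells (adjusted p = 9.6e-05), with no overlap of arrays. Il10, an inhibitory cytokine, was not well above background in pan T cells and rose at least 3.86-fold and at least 5.35-fold. Il18 stood at -3.38 and 0.41 on the pan T arrays, 3.21 and 3.20 on the RT1B+ arrays and 3.07 and 3.27 on the RT1Blow arrays, so the rise of 25.8-fold in RT1B+ cells and 25.2-fold in RT1Blow cells had an adjusted p of 0.00196 and 0.00202 with pan T arrays far apart. Without pan T array 1 the log2 difference was 2.79 (adjusted p = 0.000236) in RT1B+ cells, against 4.69 with both. Csf1, the growth factor of macrophages, rose 6.11-fold and 11.8-fold. Il16, a ligand of CD4, Lta and Ltb, the lymphotoxins, and Il22, an epithelial barrier cytokine, were lower in both gates. Il22 was not well above background on any CD8+ array, and was lower by at least 3.01-fold and at least 2.54-fold. Ltb did not pass in either gate without either pan T array, at -1.40 (adjusted p = 0.097) and -1.45 (adjusted p = 0.084) without array 1. Tnf and Il1b passed in RT1Blow cells alone. Tnf did not pass without either pan T array or either RT1Blow array, with log2 differences from 1.29 (adjusted p = 0.191) to 1.85 (adjusted p = 0.0758). Il1b stood at -1.49 and -1.49 on the pan T arrays, -1.58 and 0.55 on the RT1B+ arrays and 2.63 and 1.81 on the RT1Blow arrays, with RT1B+ array 2 between the RT1Blow and pan T arrays, and its difference between the gates had an adjusted p of 0.466.

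Of 25 cytokine receptor genes tested, 6 were higher in both gates and 5 lower, and 3 lower without RT1Blow array 2. Il2rb, the chain that binds IL-2 and IL-15 in NK and memory cells, stood at 1.94 and 2.45 on the pan T arrays, 5.20 and 4.68 on the RT1B+ arrays and 4.79 and 5.02 on the RT1Blow arrays, and it rose 6.67-fold and 6.52-fold. Il2rg, the common γ chain, did not pass, at log2 differences of 0.09 and 0.15. Both chains of the IL-12 receptor rose, Il12rb1 3.05-fold and 3.57-fold and Il12rb2 6.13-fold and 6.93-fold. Il12rb1 did not pass in either gate without pan T array 1, at 1.44 (adjusted p = 0.128) and 1.67 (adjusted p = 0.0784). Il21r, the receptor for the follicular cytokine IL-21, fell with Il7r and the IL-6 receptor chains. The interferon γ receptor chains went opposite ways: Ifngr1 rose 2.57-fold and 3.74-fold, and Ifngr2 fell 3.61-fold and 2.77-fold. Without RT1B+ array 2 Ifngr1 stood at a log2 difference of 1.19 (adjusted p = 0.056) in RT1B+ cells, and Ifngr2 at -1.31 (adjusted p = 0.0591) in RT1Blow cells without pan T array 1. Il21r did not pass in RT1Blow cells without RT1Blow array 2, at -1.41 (adjusted p = 0.0554).

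Trafficking genes fell more often than they rose, with 6 of 21 chemokine and homing receptors lower in both gates and 3 higher, and 1 higher without pan T array 1. S1pr1, the receptor by which lymphocytes leave lymph nodes, stood at 5.98 and 5.78 on the pan T arrays, 2.06 and 2.10 on the RT1B+ arrays and 2.12 and 1.51 on the RT1Blow arrays, while S1pr5, by which NK cells leave bone marrow and nodes, stood at -2.61 and -1.86 on the pan T arrays, 0.84 and -0.76 on the RT1B+ arrays and 0.20 and 0.27 on the RT1Blow arrays. S1pr1 fell 13.96-fold and 16.8-fold, and S1pr5 rose 4.85-fold and 5.56-fold. The rise of S1pr5 did not pass without pan T array 1, at 1.90 (adjusted p = 0.12) and 2.10 (adjusted p = 0.0858). The 4 CD8+ arrays were thus below pan T for one receptor of the family and above for the other. Sphk1, the kinase that makes their ligand, was not well above background on any CD8+ array and fell at least 16.99-fold and at least 14.3-fold. Cmklr1, the chemerin receptor, was not well above background in pan T cells and rose at least 5.84-fold and at least 5.74-fold. Ccr4 and Cxcr3, receptors of helper and effector T cells, fell. Cx3cr1, the fractalkine receptor of patrolling cells, did not pass, at -0.58 and -0.53 on the pan T arrays, -0.31 and -0.54 on the RT1B+ arrays and 0.08 and -0.53 on the RT1Blow arrays.

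Of 12 integrin and ICAM genes tested, 5 rose and 2 fell in both gates. Itga1, a collagen-binding α chain, stood at -2.03 and -1.08 on the pan T arrays, 2.53 and 2.79 on the RT1B+ arrays and 2.50 and 2.79 on the RT1Blow arrays. Itgam and Itgad, α chains of leukocyte β2 integrins, rose 13.01-fold and 24.97-fold in RT1B+ cells and 14.2-fold and 25.4-fold in RT1Blow cells, and their β chain Itgb2 rose 3.06-fold and 3.88-fold. Itgb7, a chain of the gut homing integrin, stood at 3.04 and 3.19 on the pan T arrays, 0.46 and 1.04 on the RT1B+ arrays and 0.33 and 0.30 on the RT1Blow arrays, and it fell 5.16-fold and 6.99-fold. Among 19 costimulatory and checkpoint genes, 8 fell in both gates and Lag3, Cd96 and Tnfrsf9 rose, of which 1 rose in both without pan T array 1 or without RT1Blow array 1. Tnfrsf9, the receptor 4-1BB, did not pass without pan T array 1, at 1.09 (adjusted p = 0.267) and 1.35 (adjusted p = 0.157). Lag3, a checkpoint receptor for class II, stood at -1.21 and -0.33 on the pan T arrays, 2.41 and 1.21 on the RT1B+ arrays and 1.60 and 1.66 on the RT1Blow arrays. Pdcd1, the PD-1 checkpoint, was lower in both gates, from -4.37 and -3.47 on the pan T arrays to -5.47 to -5.05 on the CD8+ arrays, where it was above background on 1 of 4. Without pan T array 2 it did not pass in RT1B+ cells, at -0.70 (adjusted p = 0.0702), and Cd96 did not pass in RT1Blow cells without pan T array 1, at 0.86 (adjusted p = 0.0753).

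The change did not extend to every gene group. Of 34 ribosomal protein genes, 0 passed in either gate. In RT1Blow cells 2 were lower at limma's adjusted p below 0.05, but by less than the 2-fold minimum. In each gate 3 had an unadjusted p below 0.05, all lower. Over all genes tested, 34.8% had such a p in RT1B+ cells and 35.5% in RT1Blow cells, in either direction. The median log2 differences of the ribosomal protein genes were -0.27 and -0.33, and 0.02 and -0.06 with quantile normalization. Of 26 mitochondrial respiratory chain genes, 1 passed: Ndufa4, at 3.39 and 3.39 on the pan T arrays, 1.86 and 1.73 on the RT1B+ arrays and 1.22 and 1.16 on the RT1Blow arrays. Among 22 genes of glycolysis and glucose uptake, 3 rose in both gates: Slc2a1, the glucose transporter GLUT1, by 2.91-fold and 3.28-fold, and the enzymes Aldoc and Tpi1. Slc2a1 did not pass in RT1B+ cells without RT1B+ array 2, at 1.36 (adjusted p = 0.0571). Of 24 interferon response genes, 8 rose in both gates, including Oasl, an antiviral sensor, which was not well above background in pan T cells and rose at least 13.1-fold and at least 20.8-fold. The 8 became 5 without pan T array 1, RT1B+ array 2 or RT1Blow array 1. Mx1 and Oas1b, other interferon-induced genes, lay at 4.27 to 5.03 and 4.30 to 4.76 on the CD8+ arrays against 4.90 and 4.85 and 5.02 and 4.75 on the pan T arrays and did not pass.

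**Figure D4:**
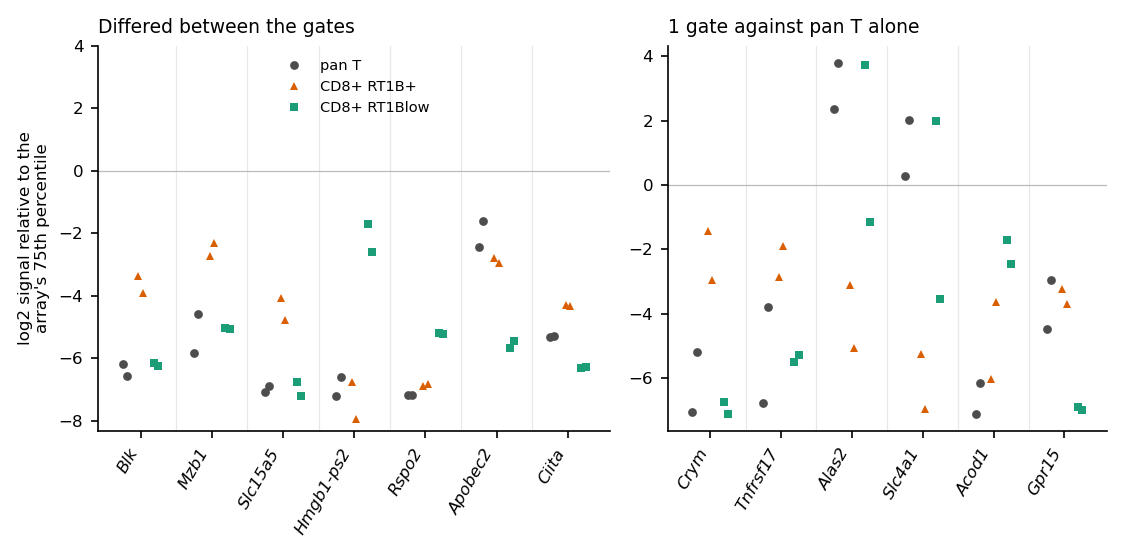
Levels on each array, as log2 signal relative to the array's 75th percentile, of the 7 named genes that differed between the gates (left) and of 6 genes that passed against pan T cells in 1 gate alone without a difference between the gates (right). Blk, Mzb1 and Slc15a5 are highest on the RT1B+ arrays, and Hmgb1-ps2 and Rspo2 on the RT1Blow arrays. For Alas2 and Slc4a1 the RT1Blow arrays lie far apart.

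Genes that separated 1 gate only, by the added test between the gates, numbered 4 for RT1B+ (0.0216%) and 8 for RT1Blow (0.0433%). In RT1B+ cells they were Blk, Mzb1, Slc15a5 and a transcript without a symbol in the files, all higher. Blk, a SRC-family kinase of B cells, stood at -6.20 and -6.58 on the pan T arrays, -3.37 and -3.91 on the RT1B+ arrays and -6.17 and -6.26 on the RT1Blow arrays, and was above background on the RT1B+ arrays alone. Its rise was at least 2.91-fold over pan T cells and at least 2.59-fold over RT1Blow cells (adjusted p = 0.0348). Mzb1, a chaperone of antibody-secreting and marginal zone B cells, stood at -5.82 and -4.59 on the pan T arrays, -2.72 and -2.31 on the RT1B+ arrays and -5.05 and -5.07 on the RT1Blow arrays, with an adjusted p between the gates of 0.0476. In RT1Blow cells the genes that were higher included Hmgb1-ps2, Rspo2 and 4 transcripts without a symbol, and the gene that was lower was Apobec2. Hmgb1-ps2, a pseudogene of Hmgb1, was at -7.21 and -6.62 on the pan T arrays, -6.77 and -7.95 on the RT1B+ arrays and -1.72 and -2.61 on the RT1Blow arrays. Whether its probe reads Hmgb1 was not tested. Rspo2, a WNT pathway agonist, stood at -7.18 and -7.18 on the pan T arrays, -6.91 and -6.82 on the RT1B+ arrays and -5.19 and -5.23 on the RT1Blow arrays. Apobec2, a cytidine deaminase relative of muscle, stood at -2.44 and -1.63 on the pan T arrays, -2.78 and -2.97 on the RT1B+ arrays and -5.69 and -5.46 on the RT1Blow arrays. For each of these the 2 arrays of the gate lay together and apart from the other 4, though most levels were low. Hmgb1-ps2 and Rspo2 were not well above background on any RT1B+ or pan T array. Over RT1B+ cells they rose at least 8.53-fold and at least 1.04-fold. Ciita differed between the gates, at -5.33 and -5.29 on the pan T arrays, -4.31 and -4.34 on the RT1B+ arrays and -6.33 and -6.28 on the RT1Blow arrays, without passing against pan T in either.

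This group of 13 was small and depended on how the data were handled. It became 0 with normexp background correction, with no filter on dim probes, with genes measured on all 6 arrays alone, and in fits to the 6 or to the 10 blood arrays alone. At an unadjusted p below 0.05, limma found 962 genes between the gates (5.21%). Leaving out RT1B+ array 1 gave 1 gene, and it was not among the 13. Leaving out RT1Blow array 2 gave 222, with all 13 among them.

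The larger groups that passed in 1 gate alone were 238 higher (1.29%) and 294 lower (1.59%) in RT1B+ cells, and 420 higher (2.27%) and 243 lower (1.31%) in RT1Blow cells. Their split depended on scaling: quantile normalization gave 321 higher and 222 lower in RT1B+ cells and 325 higher and 387 lower in RT1Blow cells, normexp gave 192 and 149 in RT1B+ cells and 247 and 207 in RT1Blow cells, and the authors' deposited values gave 286 and 229 in RT1B+ cells and 332 and 324 in RT1Blow cells. Leaving out RT1Blow array 1 or 2 raised the RT1B+ group from 532 to 988 or 894. Leaving out RT1B+ array 1 or 2 raised the RT1Blow group from 663 to 1084 or 1003, and leaving out RT1Blow array 1 reduced it to 349.

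**Figure D5:**
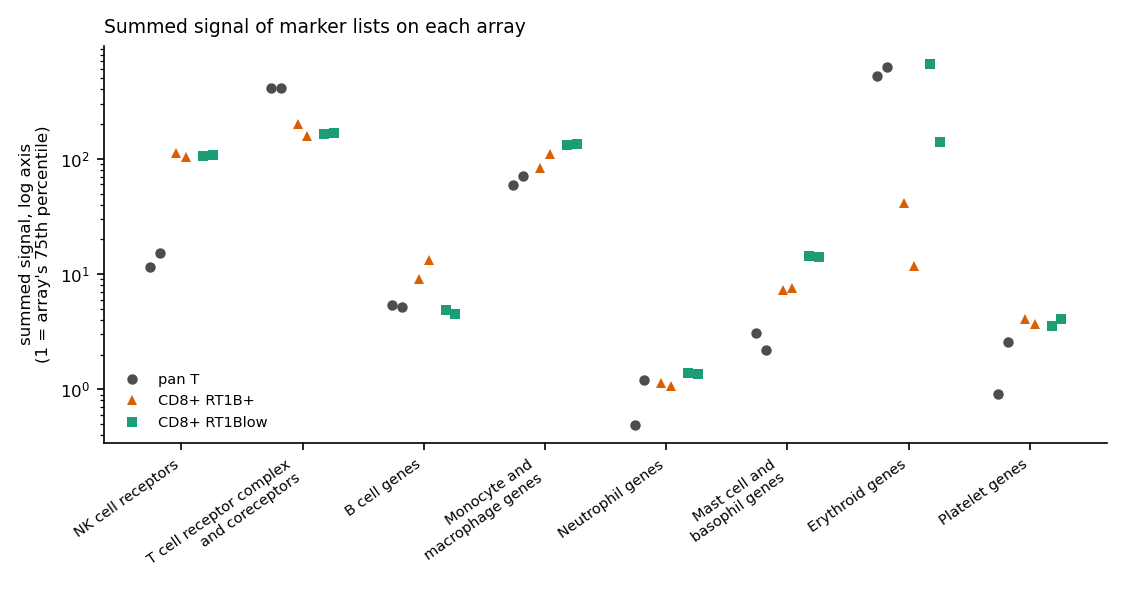
Summed signal of the probes of 8 marker lists on each array, on a log axis, with 2 points for each population. A value of 1 equals the signal at the array's 75th percentile. NK receptor sums are higher and T cell receptor sums lower on all 4 CD8+ arrays, B cell sums are highest on the RT1B+ arrays, and the erythroid sums of the RT1Blow arrays (671 and 139) lie apart.

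Markers of other blood cells were set beside these 1-gate genes. Of 19 B cell genes tested, 10 were higher in RT1B+ cells alone. In both gates Bank1, a B cell scaffold protein, rose and Cd22, an inhibitory B cell receptor, fell. Cd22 did not pass in either gate without pan T array 1, at -0.83 and -0.86, or without either RT1Blow array. Its log2 difference in RT1Blow cells was -1.33 without RT1Blow array 1 and -1.125 without RT1Blow array 2. In RT1B+ cells Cd22 also did not pass without RT1B+ array 1, at -0.66. Fcmr, the receptor for IgM, stood at -1.13 and -1.12 on the pan T arrays, 0.58 and 1.39 on the RT1B+ arrays and -1.05 and -1.35 on the RT1Blow arrays. It was highest on the RT1B+ arrays and did not pass between the gates (adjusted p = 0.111). The B cell list summed to 9.08 and 13.2 on the RT1B+ arrays, 4.89 and 4.48 on the RT1Blow arrays and 5.38 and 5.14 on the pan T arrays. Pax5, the defining factor of B cells, did not follow, at -0.40 and -0.63 on the pan T arrays, -0.97 and -1.04 on the RT1B+ arrays and -0.997 and -0.86 on the RT1Blow arrays. Tnfrsf17, the plasma cell receptor BCMA, stood at -6.77 and -3.78 on the pan T arrays, -2.85 and -1.89 on the RT1B+ arrays and -5.50 and -5.29 on the RT1Blow arrays, and passed in RT1B+ cells alone with no difference between the gates (adjusted p = 0.385). Its log2 difference from pan T was 1.40 (adjusted p = 0.162) without pan T array 1. The part of B cell RNA in the Blk and Mzb1 results was not tested. Pou2af1, a B cell coactivator, stood at -0.31 and 0.44 on the pan T arrays, 0.24 and 0.81 on the RT1B+ arrays and -2.25 and -2.31 on the RT1Blow arrays and passed as lower in RT1Blow cells alone.

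Other genes past the threshold in RT1B+ cells alone were Crym, a thyroid hormone binding protein, at -7.04 and -5.19 on the pan T arrays, -1.42 and -2.95 on the RT1B+ arrays and -6.74 and -7.11 on the RT1Blow arrays, and Sirpb3, a signal regulatory protein, at -7.03 and -6.78 on the pan T arrays, -1.78 and -4.72 on the RT1B+ arrays and -6.77 and -7.12 on the RT1Blow arrays. Neither passed without pan T array 1, at 3.01 (adjusted p = 0.0781) and 3.54 (adjusted p = 0.13). The genes furthest apart on the lower side were erythroid. Alas2, the haem synthesis enzyme of red cells, stood at 2.37 and 3.80 on the pan T arrays, -3.11 and -5.06 on the RT1B+ arrays and 3.73 and -1.13 on the RT1Blow arrays, and Slc4a1, the red cell anion exchanger, at 0.29 and 2.03 on the pan T arrays, -5.25 and -6.97 on the RT1B+ arrays and 1.99 and -3.53 on the RT1Blow arrays. RT1Blow array 1 lay with the pan T arrays and RT1Blow array 2 between them and the RT1B+ arrays. Of 13 erythroid genes tested, 7 were lower in RT1B+ cells, where 9 were lower at an unadjusted p below 0.05. In RT1Blow cells 0 were lower by limma, and 0 at that p. Over all genes tested, 34.8% had such a p in RT1B+ cells and 35.5% in RT1Blow cells, in either direction. The erythroid list summed to 524 and 627 on the pan T arrays, 41.2 and 11.8 on the RT1B+ arrays and 671 and 139 on the RT1Blow arrays. Add2, Ahsp, Hba-a3 and Hbe2 were lower with them, and the part of red cell RNA in these results was not tested. Without RT1Blow array 1, 5 of the 13 erythroid genes were lower in both gates, with Alas2 at -4.22 (adjusted p = 0.0172) and Slc4a1 at -4.69 (adjusted p = 0.00693) in RT1Blow cells.

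In RT1Blow cells alone, Acod1, the itaconate enzyme of activated macrophages, stood at -7.11 and -6.17 on the pan T arrays, -6.04 and -3.64 on the RT1B+ arrays and -1.71 and -2.45 on the RT1Blow arrays, and Lilrb4, an inhibitory receptor of myeloid cells, at -6.45 and -4.11 on the pan T arrays, -5.68 and -2.02 on the RT1B+ arrays and -1.02 and -1.02 on the RT1Blow arrays. RT1B+ array 2 was higher than RT1B+ array 1 for both. Lilrb4 did not pass without pan T array 1, at 3.08 (adjusted p = 0.101). Without RT1B+ array 1 both also passed in RT1B+ cells, at 2.997 (adjusted p = 0.0255) and 3.26 (adjusted p = 0.0247). Of 28 monocyte and macrophage genes tested, 5 rose in both gates, 2 rose in RT1Blow cells alone, 1 fell in RT1B+ cells alone and 20 passed in neither gate. Cd14, the LPS coreceptor, and Lyz2, lysozyme, were among the 20. Cd14 stood at -3.002 and -2.40 on the pan T arrays, -6.37 and -2.51 on the RT1B+ arrays and -1.97 and -1.57 on the RT1Blow arrays, and Lyz2 at 4.68 and 4.69 on the pan T arrays, 1.85 and 4.83 on the RT1B+ arrays and 5.06 and 5.27 on the RT1Blow arrays, so RT1B+ array 1 lay below the pan T arrays for both. Without RT1B+ array 2 both passed as lower in RT1B+ cells, at -3.67 (adjusted p = 0.00287) and -2.83 (adjusted p = 0.0084). The list summed to 58.99 and 70.4 on the pan T arrays, 83.1 and 110.3 on the RT1B+ arrays and 132 and 136 on the RT1Blow arrays, and its part in the Acod1, Lilrb4, Il1b and Cxcl2 results was not tested. The 5 that rose in both were Fcgr2a and Fcgr2b, low-affinity Fc receptors, Itgam, an integrin chain, Cebpb and Ctsd, and of these Itgam is also carried by NK cells. Ctsd, a lysosomal protease, did not pass without pan T array 1, at 0.79 and 0.85. In RT1B+ cells it also did not pass without RT1B+ array 1 or 2, at 0.97 and 1.33. The same held in RT1Blow cells without RT1Blow array 1 or 2, at 1.24 and 1.18. Another Fcgr2b probe gave a log2 difference of -0.01 in RT1B+ cells. Or2t48b also rose in RT1Blow cells alone, and Gpr15, a gut homing receptor, Bend5, Ccr10 and Pxdc1 were lower in them alone. Without RT1B+ array 2 Bend5 was lower in RT1B+ cells too, at -1.88 (adjusted p = 0.015). Gpr15 stood at -4.47 and -2.96 on the pan T arrays, -3.21 and -3.69 on the RT1B+ arrays and -6.89 and -6.99 on the RT1Blow arrays. It was above background on the RT1B+ and pan T arrays and on neither RT1Blow array, with an adjusted p between the gates of 0.0861.

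CD8+ cells on other arrays of the series show where each level stood on the slide that held pan T cells. The 4 arrays of CD8+ cells from WKY glomeruli lay on that slide, and the 4 arrays of blood CD8+ cells from LEW rats on the slide of the WKY blood CD8+ cells. Ncr1 ranged from 0.18 to 1.84 in the glomerular and 1.87 to 2.26 in the LEW cells, against -3.59 and -1.58 in pan T cells. Gzmb ranged from 5.68 to 6.33 and 5.41 to 6.07, against 0.43 and 1.81. For both genes the glomerular CD8+ arrays lay above the pan T arrays of their own slide. Lef1 ranged from -4.89 to -4.37 in the glomerular and -2.93 to -1.93 in the LEW cells, against 3.27 and 3.03 in pan T cells. Cd3g ranged from 1.14 to 2.60 and 0.81 to 2.47, against 6.07 and 6.04. Both were below pan T cells on the same slide. Nr4a1, of the immediate early genes, ranged from 5.41 to 6.47 in the glomerular and 5.07 to 5.54 in the LEW cells, and Cks2 from 5.20 to 5.72 and 4.49 to 5.17, all above the pan T levels. Slc27a2 was an exception among the largest rises, at -2.91 to -2.43 in LEW blood CD8+ cells, below pan T array 2, against 3.90 to 4.89 in the glomerular cells. Clstn1 likewise lay at -3.25 to -2.62 in LEW cells, and at -0.82 to 1.06 in glomerular cells. These arrays differ from the WKY blood cells in tissue or strain as well, so they are given as levels with no test.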

How the data were processed

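Gene expression was measured on 1-colour Agilent rat arrays, although the series text names another maker's software. Per the file headers, the authors extracted spot intensity with Feature Extraction 11.0.1.1, and the deposited intensity used here (gProcessedSignal) is background-subtracted. The authors' deposited log2 value table was used as an alternative, and its normalization is not given in the sources used here. The 75th percentile of the gene probes was subtracted from log2 intensity on each array, spots of a probe were averaged, and a gene took its brightest of several probes. Of 30367 probes, 18355 had 1 gene symbol and 12012 none. Differences were fitted with limma 3.58.1 (lmFit, eBayes, R 4.3.3) to all 16 arrays with a mean for each of 8 groups of 2, keeping genes that passed Feature Extraction's above-background flag on both arrays of some group. The script was tested on simulated data.

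Slide could not be fitted, since no group lay on both. Arrays are numbered in accession order. Alternatives were normexp background correction (offset 50, on median signals), quantile normalization, other filters, fold minimums and sets of arrays, and single arrays left out. Named genes were the label-check genes, the 12 largest changes each way in both gates, up to 6 each way for 1 gate, and members of the gene lists. The largest changes also had to show no overlap of CD8+ and pan T arrays. The members and lists were chosen with earlier results of these data known. Symbols are those of the files. Results for some genes that met the naming rule are not reported here.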

Additional observations from a re-analysis of the deposited data

Results flagged for a closer look

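The 2 CD8+ gates differed by limma's test at 7 named genes, and each is given here as the log2 level in RT1B+ minus that in RT1Blow cells. Blk was higher in RT1B+ cells by 2.57 ± 0.34 (SE, n = 2 against 2; adjusted p = 0.0348), Mzb1 by 2.54 ± 0.38 (SE, n = 2 against 2; adjusted p = 0.0476) and Slc15a5 by 2.58 ± 0.38 (SE, n = 2 against 2; adjusted p = 0.0474). Apobec2 differed by 2.70 ± 0.40 (SE, n = 2 against 2; adjusted p = 0.0474) and Ciita by 1.98 ± 0.30 (SE, n = 2 against 2; adjusted p = 0.0474), also higher in RT1B+ cells. Hmgb1-ps2 differed by -5.19 ± 0.67 (SE, n = 2 against 2; adjusted p = 0.0348) and Rspo2 by -1.66 ± 0.24 (SE, n = 2 against 2; adjusted p = 0.0474), both lower in RT1B+ cells. In each of the 7 the 2 arrays of one gate lay above both arrays of the other. Blk, Slc15a5, Apobec2 and Ciita were not well above background on either RT1Blow array. Their rises in RT1B+ cells were at least 2.59-fold, 1.51-fold, 4.39-fold and 1.61-fold. Hmgb1-ps2 and Rspo2 were not well above background on either RT1B+ array, and were lower there by at least 8.53-fold and 1.04-fold. Under normexp background correction 0 genes passed between the gates.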

How the results depend on the processing

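The counts moved with the fold minimum and, for genes between or in 1 gate, with more. A 4-fold minimum gave 1396 genes for RT1B+ against pan T, 1397 for RT1Blow against pan T, 1093 for both gates, 303 for RT1B+ alone, of which 175 were in that group at 2-fold, and 304 for RT1Blow alone, of which 165 were. The 13 genes between the gates became 0 with normexp, with no filter on dim probes, with genes well above background on all 6 arrays, and with only the 6 or only the 10 blood arrays in the fit. They became 29 with quantile normalization, of which 12 were among the 13, and 2 with the authors' deposited values. The RT1B+ alone group became 341 with normexp and 347 with genes above background on all 6 arrays, and the RT1Blow alone group 413 with the latter. Leaving out 1 array at a time, where the lone array is assumed to vary like the other groups, gave 2637 to 3250 genes for RT1B+ against pan T, 2387 to 3283 for RT1Blow against pan T, 2037 to 2694 for both gates, 1 to 222 between the gates, 453 to 988 for RT1B+ alone and 349 to 1084 for RT1Blow alone. Among 333 called values of the 212 genes named, 237 passed under every alternative that could be computed, and 0 of 431 values reversed while called. No paired analysis was possible because the labels give no replicate numbers. Slide and population cannot be told apart. Probes near background limit the smallest levels, and 2 arrays in each population limit every error.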
